A study of Mus musculus with 4 samples.

Results

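The response of Camk2g knockout thymus to N-methyl-N-nitrosourea (MNU) was read from 2 of the 4 libraries of the series, by setting the library labelled KO-plus (knockout with MNU) against the library labelled KO-minus (knockout without MNU). Of 10598 gene symbols in the deposited table, 10587 had a mean of at least 10 normalised counts over the 4 libraries and entered the comparison. Camk2g encodes the gamma form of the calcium-activated kinase CaMKII, and MNU is an alkylating mutagen that induces T-cell lymphoma in mice. The study asked how loss of the kinase alters gene expression in thymus under normal and malignant conditions. All animals were C57BL/6J mice and all RNA came from thymus. KO-plus was Camk2g-/- (labelled CAMKIIgamma-/-) and had received one intraperitoneal dose of 75 mg/kg MNU at 4 to 5 weeks of age, with a treatment time of 6 months. KO-minus was Camk2g-/- given vehicle for the same time. WT-plus and WT-minus were the wild-type libraries with MNU and with vehicle, and are given beside each knockout value. No promoter or Cre is named for the deletion, and the number of mice behind each library is not given in the labels.

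Each group had 1 library. No value below therefore has a replicate error, no p-value was computed, and a difference is counted as higher or lower when it reached 2-fold on the scale of log2(normalised count + 10). Every such count compares these libraries, not the conditions. Normalised counts summed to between 32911362 and 34836257 per library, and 1 unit stood for about 1 read, so low values rest on few reads.

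The thymus is where T cells mature. Immature thymocytes pass through stages marked by the co-receptors Cd4 and Cd8a, on a scaffold of cortical and medullary epithelium, and fat gradually takes the place of lymphoid tissue with age. Lymphoma in this organ replaces its normal architecture, and T-cell lymphomas of mice often carry active NOTCH signalling. Neutrophils are short-lived phagocytes whose granule and cytoplasmic proteins, such as Ngp, Camp, S100a8 and S100a9, are made in bone marrow precursors or carried by the mature cells.

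The targeted gene was read first, since it checks the labels. Camk2g stood at 2749 normalised counts in WT-minus, 3173 in WT-plus, 489 in KO-minus and 29.7 in KO-plus. Both knockout libraries were far below both wild-type libraries, but KO-minus held 17.8% of the WT-minus level and KO-plus 1.08%. The level in KO-minus goes in part against its label, so every direction drawn below from KO-minus carries that limit.

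KO-minus also carried a share of the WT-plus profile. The share was computed over 42 genes that exceeded 1000 normalised counts in WT-plus, and exceeded WT-minus and KO-plus there by over 20-fold. For each gene the mean of WT-minus and KO-plus was first subtracted from both KO-minus and WT-plus. The remainder in KO-minus was a median of 15.4% of that in WT-plus. The 5th and 95th percentiles were 13.9% and 18.5%. In 72 genes between 6-fold and 20-fold higher in WT-plus the median was 16.2%. Next, 48 genes were chosen from the wild-type libraries alone, with WT-minus as the level subtracted. Their median was 15.5% in KO-minus and 0.0429% in KO-plus. Single genes ran from 13.3% to 33.9% in KO-minus and from -2.02% to 60.7% in KO-plus. These 48 genes include the 42, so they do not give a separate estimate. The share multiplied by the WT-plus level of Camk2g gives 487.7 normalised counts, beside the 489 that KO-minus held. Subtracting the share left 1.15.

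To show which differences could follow from that share, the difference that the share alone would give was computed for each gene, by mixing 15.4% of WT-plus into KO-plus and comparing KO-plus with the mixture (the share-only difference). A share of this size can raise a KO-plus to KO-minus difference by at most 0.24 log2 units, for a gene absent from WT-plus. It can lower one by much more, down to -5.61, for a gene abundant in WT-plus. Each difference was also recomputed after the share had been subtracted from KO-minus, with values below 0 set to 0.

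The labelled tissue was present in both knockout libraries. Cd4 stood at 42622 in WT-minus, 21616 in WT-plus, 27365 in KO-minus and 33005 in KO-plus, and Cd8a at 59567, 50774, 45133 and 50518 in the same order. Prss16, a serine protease of cortical epithelium, stood at 25293, 8.26, 22697 and 18685. Psmb11, the thymoproteasome subunit of the same cells, stood at 5200, 12, 4296 and 3175. Aire, the regulator of medullary epithelium, stood at 797, 29.6, 695 and 984. All 3 epithelial genes were thus at similar levels in both knockout libraries and in WT-minus, and low only in WT-plus.

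Of the 10587 genes, 35 were at least 2-fold higher in KO-plus than in KO-minus (0.331%) and 312 were at least 2-fold lower (2.95%). The median difference over all genes was 0.013, and the 5th and 95th percentiles were -0.65 and 0.36. After subtraction of the share, 42 genes were higher (0.397%) and 198 lower (1.87%). With WT-minus in place of KO-minus, 166 were higher (1.57%) and 117 lower (1.11%). If 20% of WT-plus was subtracted in place of the estimated share, 114 genes were higher and 192 lower. Near the 2-fold limit, within 0.05 log2 units, 29 lower genes lay just inside and 32 just outside, and 1 higher gene lay inside and 4 outside.

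The 312 lower genes fell into 3 bands by their share-only difference. For 145 of them (46.5%) the share alone would give a difference of -1 or lower. Of these, 142 were at least 2-fold higher in WT-plus than in WT-minus, all 42 genes used to estimate the share were among them, and 21 were still 2-fold lower after subtraction. For 49 (15.7%) the share would give between -1 and -0.25, and 17 of these were still lower after subtraction. For 118 (37.8%) it would give more than -0.25, and all 118 were still lower after subtraction. That last band held 31 white adipocyte genes, 5 glucocorticoid-induced genes and 14 Mup genes, and for 96 lower genes the share acted in the opposite direction. All 35 higher genes had share-only differences between -0.061 and 0.24, and 28 of them stayed at least 2-fold higher after subtraction.

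**Figure D1:**
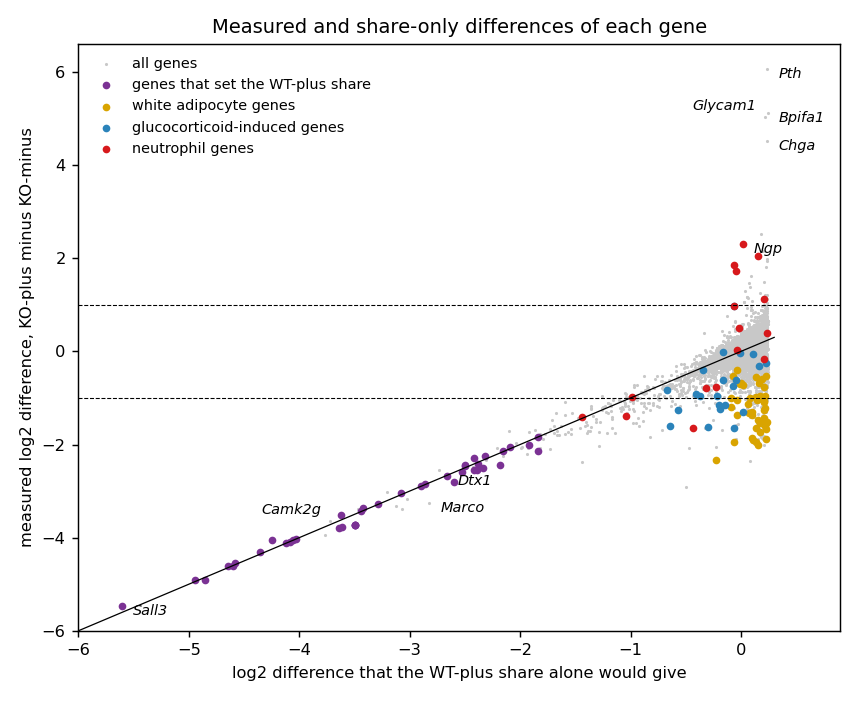
Measured log2 difference of KO-plus minus KO-minus (vertical axis) against the log2 difference that the WT-plus share alone would give (horizontal axis), 1 point per gene for 10587 genes, 1 library per group. The solid line marks equality and the dashed lines 2-fold. The 42 genes that set the share lie along the line by the way they were chosen, while the 45 white adipocyte genes (gold) have negative measured differences and the 5 higher neutrophil genes (red) lie above the line.

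The largest increase in KO-plus was in Pth, which encodes parathyroid hormone. Pth was at 256.8 normalised counts in WT-minus, listed at 0 in WT-plus, at 2.22 in KO-minus and at 804 in KO-plus. KO-plus was therefore the highest of the 4 libraries, but WT-minus was also well above KO-minus. The difference was 6.06 log2 units against KO-minus, 6.01 after subtraction and 1.61 against WT-minus. The defining parathyroid genes Gcm2 and Casr were not among the genes analysed here, so presence of parathyroid tissue in a library was not tested.

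Bpifa1 and Chga were also among the 4 largest increases. Bpifa1, a secreted airway protein, was at 226 in WT-minus, listed at 0 in WT-plus, at 80.8 in KO-minus and at 3141 in KO-plus. Chga, the granule protein chromogranin A, stood at 337, 8.25, 45.8 and 1262 in the same order. Their differences from KO-minus were 5.12 and 4.51, and their differences from WT-minus were 3.74 and 1.87. In both genes KO-plus was highest, KO-minus was below WT-minus and WT-plus was lowest. Chga was the only one of 3 measured neuroendocrine genes past 2-fold, the others being Calcb at 0.023 and Syt13 at -0.97, the latter beside a share-only difference of -0.94.

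Reg3g, a secreted antibacterial lectin, stood at 296 in WT-minus, 12 in WT-plus, 255 in KO-minus and 1041 in KO-plus. Gp2, a glycoprotein of the apical membrane that serves M cells as a bacterial receptor, stood at 152, 1.75, 195 and 773. KO-plus was the single high library for both, since WT-minus and KO-minus were close to each other. Their differences were 1.99 and 1.93. Over the airway and secretory epithelium list, 8 of 36 genes were measured. Of these, 2 were higher (Bpifa1 and Reg3g) and 0 lower, beside 0.331% of all genes higher. The list median was 0.37, 0.26 after subtraction and 1.35 against WT-minus, where 4 of 8 were higher, beside 1.57% of all genes.

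Glycam1, a mucin-like ligand of L-selectin made by high endothelial venules of lymph nodes, was at 10.9 in WT-minus, 39.9 in WT-plus, 6.47 in KO-minus and 530 in KO-plus. It was high in KO-plus alone, by 5.03 against KO-minus and 4.69 against WT-minus. The level in KO-minus rests on about 6 reads. Of 17 lymph node stroma and high endothelial genes measured, Glycam1 alone was higher, and Bst1, Lyve1 (-1.25) and Cxcl13 (-1.19) were lower. The list median was 0.23, and 0.331% of all genes were higher and 2.95% lower. After subtraction 1 gene of the list was higher and 0 lower, beside 0.397% and 1.87% of all genes. Eps8l1, an actin-regulating adaptor of epithelium, stood at 1329, 223, 344 and 1571 and differed by 2.16 from KO-minus. It differed by 0.24 from WT-minus, and both KO-minus and WT-plus were low. Among 13 squamous and cornified epithelium genes measured, Eps8l1 alone had a positive difference, and the list median was -0.51. Vmn2r96, a vomeronasal receptor gene, stood at 550, 20.3, 186 and 679, a difference of 1.81 from KO-minus and 0.30 from WT-minus. Sfi1, a centrin-binding protein of the centrosome, stood at 6200, 862, 2546 and 7146, with differences of 1.49 and 0.20. Vmn2r96 and Sfi1 too were low in KO-minus and lower still in WT-plus.

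Xlr3a, Xlr3b and Xlr3c, lymphocyte-regulated genes of the X chromosome, were highest in KO-plus. Xlr3b stood at 246 in WT-minus, 204 in WT-plus, 152 in KO-minus and 647 in KO-plus, a difference of 2.02. Xlr3a was at 376 in KO-plus against 57.4 in KO-minus (2.52), and Xlr3c at 467 against 104 (2.06). All 3 were also more than 2-fold above WT-minus, by 1.33 to 1.77. Xlr3a and Xlr3c are near-identical copies, so reads may have been split between them. Of 9 genes measured in the list of Xlr and other X-linked genes, which holds Xist, 3 were higher and 2 lower. The list median was 0.11, and 0.331% of all genes were higher and 2.95% lower. The lower pair, Gm14475 and Gm14476, held identical values, 13.9, 2265, 433 and 23.5, a difference of -3.73 beside a share-only difference of -3.50. Both were among the 42 genes that set the share.

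**Figure D2:**
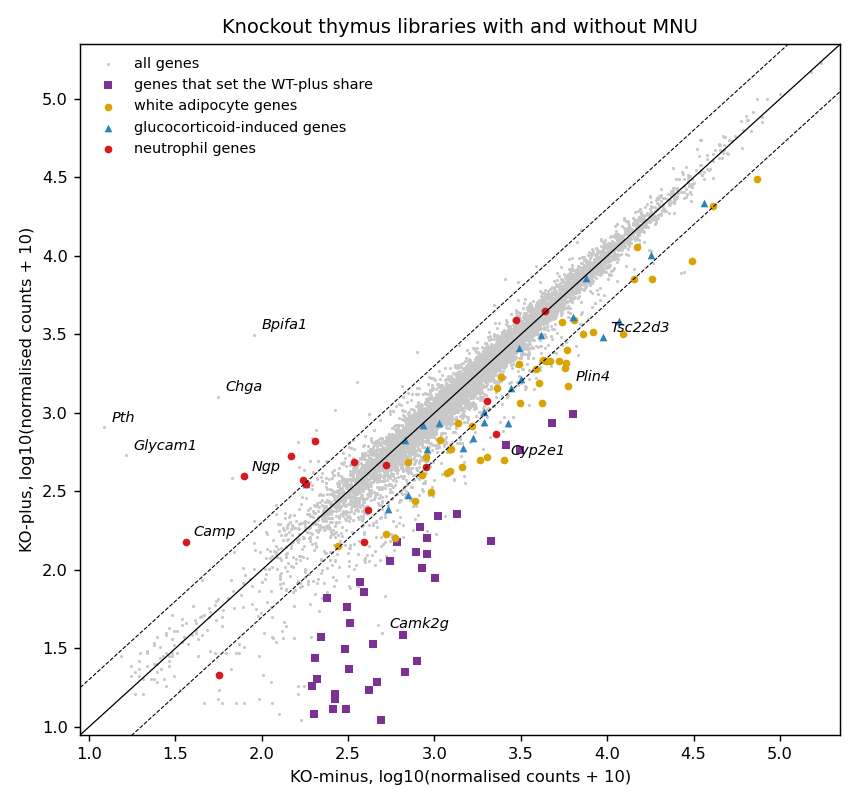
Level of each of 10587 genes in KO-minus (horizontal) and KO-plus (vertical), both as log10(normalised counts + 10), 1 library each. The solid line marks equal levels and the dashed lines 2-fold, with 35 genes on or above the upper line and 312 on or below the lower one. Pth, Bpifa1, Chga and Glycam1 stand farthest above it.

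Genes of neutrophil granules and cytoplasm were the next group. Ngp, a granule protein, stood at 48.6 normalised counts in WT-minus, 355 in WT-plus, 69.1 in KO-minus and 384 in KO-plus. Camp, the cathelicidin precursor of the secondary granules, stood at 17.8, 41.8, 26.6 and 141. Both MNU libraries lay above both vehicle libraries for these genes. The difference was 2.32 for Ngp and 2.04 for Camp.

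S100a8 and S100a9 are the subunits of calprotectin. S100a8 stood at 195 in WT-minus, 671 in WT-plus, 137 in KO-minus and 522 in KO-plus, a difference of 1.85. S100a9 stood at 269, 781, 192 and 655, a difference of 1.72. For these genes too both MNU libraries were above both vehicle libraries, but WT-plus was the highest and KO-minus the lowest. Pglyrp1, a granule peptidoglycan receptor, stood at 142, 31.5, 163 and 365, a difference of 1.12, and was lowest in WT-plus. Lcn2, a siderophore-binding granule protein, stood at 75.3, 443, 171 and 344, just short of the limit at 0.97.

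WT-plus held high levels of most of these genes. The share-only differences were 0.016 for Ngp, -0.061 for S100a8 and -0.041 for S100a9, and after subtraction the differences grew to 3.86, 3.41 and 2.80. Subtraction left KO-minus at 17.2, 40.1 and 85.4, each below WT-minus, so the larger differences depend on the share used. Against WT-minus the differences were 2.75, 1.37 and 1.25. After subtraction Pglyrp1 was at 0.93, under the limit, and Lcn2 at 1.43, above it. In bulk tissue, more cells of a type and more RNA per cell cannot be told apart.

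Other neutrophil genes did not share this direction. Of 16 measured genes of 40 listed, 5 were higher (Ngp, Camp, S100a8, S100a9 and Pglyrp1) and 3 lower (Hp, Padi4 and Clec4d), with a median of 0.22 beside 0.013 for all genes. Of all genes, 0.331% were higher and 2.95% lower. Hp, haptoglobin, stood at 2293 in WT-minus, 2370 in WT-plus, 2255 in KO-minus and 719 in KO-plus, so that KO-plus was the single low library, at -1.64. Hp is also made by fat and liver. Padi4, a histone-citrullinating enzyme, stood at 207, 1170, 383 and 140, a difference of -1.39 beside a share-only difference of -1.04. Clec4d, a myeloid C-type lectin, stood at 18.8, 248, 46.8 and 11.3, a difference of -1.42 beside a share-only difference of -1.44. The summed level of the 16 genes was 12419 in WT-minus, 18480 in WT-plus, 14884 in KO-minus and 14427 in KO-plus.

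The promoters of Ngp and S100a9 are shown because both genes were higher in KO-plus and both hold a match to the letters TTNNGCAA (either strand), the core bound by C/EBP factors, which drive granule genes and fat cell differentiation. The sequences are the 250 bases before the RefSeq start site on GRCm38, read on the strand of the gene, with the matches in capitals. The Ngp window, chr9:110419558-110419807 on the plus strand, holds 2 matches, beginning at -138 and -11. The S100a9 window, chr3:90695722-90695971 on the minus strand, holds 1, beginning at -236.
Ngp: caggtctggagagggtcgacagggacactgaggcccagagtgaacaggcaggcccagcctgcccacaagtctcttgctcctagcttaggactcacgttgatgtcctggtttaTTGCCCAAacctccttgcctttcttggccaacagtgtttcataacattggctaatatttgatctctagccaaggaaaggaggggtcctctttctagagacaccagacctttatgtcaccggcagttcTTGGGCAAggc
S100a9: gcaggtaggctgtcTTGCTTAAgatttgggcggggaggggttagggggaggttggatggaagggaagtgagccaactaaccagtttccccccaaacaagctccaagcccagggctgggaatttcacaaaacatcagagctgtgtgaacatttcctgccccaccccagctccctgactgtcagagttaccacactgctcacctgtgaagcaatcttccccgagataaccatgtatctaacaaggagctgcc

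Such a match was found in 2 of the 5 higher neutrophil genes, in 8.88% of the 7453 genes analysed here with a promoter in the RefSeq table and in 10.8% of all 27025 genes there. The letters are a description of these windows and not a binding site. The motifs were searched after the values had been seen.

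Some genes of macrophages and related myeloid cells were also higher. Cd5l, a protein that supports macrophage survival, stood at 180 in WT-minus, 1523 in WT-plus, 787 in KO-minus and 2451 in KO-plus, a difference of 1.63. Sirpb1a stood at 38.7, 301, 181 and 487, and Sirpb1b at 46.6, 302, 155 and 445, with differences of 1.38 and 1.46. These activating receptors of myeloid cells were lowest in WT-minus and highest in KO-plus. Among 31 macrophage genes measured the median was 0.23, and 0.21 after subtraction. Of these, 1 was higher (Cd5l) and 2 were lower, beside 0.331% of all genes higher and 2.95% lower. The lower 2 were the scavenger receptor Marco, given below, and the lipid receptor Trem2. Trem2 stood at 106, 451, 178 and 83.8, a difference of -1.01 beside a share-only difference of -0.68.

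B cell genes were above KO-minus, mostly by less than 2-fold. All 22 measured genes had a positive difference, with a median of 0.71, beside 0.013 for all genes. The share-only median of the list was 0.21, and its median after subtraction was 0.53. Only Faim3, the receptor for IgM, reached 2-fold, beside 0.331% of all genes higher. Faim3 stood at 145 in WT-minus, 4.53 in WT-plus, 203 in KO-minus and 482 in KO-plus (1.21, and 0.98 after subtraction). Against WT-minus 17 of 22 were higher, with a median of 1.13, beside 1.57% of all genes higher. Cd180, a Toll-like receptor homologue of B cells and macrophages, stood at 328, 265, 406 and 980, a difference of 1.25 that was 1.16 after subtraction. The summed level of the B cell list was 76024 in WT-minus, 10115 in WT-plus, 103133 in KO-minus and 128605 in KO-plus.

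Globin genes were higher than in KO-minus, and lower than in WT-minus. Hba-a1, an alpha globin gene, stood at 20709 in WT-minus, 13094 in WT-plus, 7045 in KO-minus and 14613 in KO-plus, a difference of 1.05. Hbb-b1, a beta globin gene, stood at 9000, 5136, 3023 and 6847, a difference of 1.18. KO-minus was the lowest of the 4 libraries for both. The second copies, Hba-a2 and Hbb-b2, held values within 0.0362% of these and are not separate evidence. Over 9 erythroid genes measured, 4 were higher, all of them globins, beside 0.331% of all genes higher. The erythroid median was 0.75 against KO-minus and -0.39 against WT-minus.

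Of the 41 lists with at least 5 measured genes, the lowest median was that of white adipocytes, the cells that store triglyceride in a single droplet. Of 45 measured genes of 49 listed, 31 were at least 2-fold lower and 0 higher, and all 45 differences were negative. Like all lists here, this one was chosen with earlier results of these data known, so its count may in part repeat that choice. The list median was -1.21, beside 0.013 for all genes, of which 2.95% were lower. The share would have given 0.14 in the opposite direction. After subtraction 35 were lower, with a median of -1.45, beside 1.87% of all genes lower. With WT-minus in place of KO-minus, 22 were lower and the median was -0.999, beside 1.11% of all genes lower.

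Plin4, a coat protein of nascent lipid droplets, stood at 8782 normalised counts in WT-minus, 522 in WT-plus, 5954 in KO-minus and 1474 in KO-plus. Plin1, the perilipin that gates lipolysis, stood at 3389, 148, 3097 and 1147. Cidec, which fuses lipid droplets, stood at 4568, 633, 4163 and 1142. In these genes both MNU libraries were below both vehicle libraries, and WT-plus was the lowest. The differences were -2.01 for Plin4, -1.42 for Plin1 and -1.86 for Cidec, with share-only differences between 0.10 and 0.21.

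Hormones secreted by fat followed the same order with exceptions. Adipoq, which encodes adiponectin, stood at 4940 in WT-minus, 490 in WT-plus, 5668 in KO-minus and 1936 in KO-plus (-1.55). Retn, which encodes resistin, stood at 841, 209, 1991 and 511 (-1.94). Lep, which encodes leptin and lies outside the rule for naming genes, was at 2877, listed at 0 in WT-plus, and at 1176 and 402 in the knockout libraries (-1.52). KO-minus was above WT-minus for Retn and below it for Lep. Cfd, the complement protease adipsin, stood at 3752, 4108, 12324 and 3185 (-1.95), and there KO-minus was the single high library while KO-plus was close to both wild-type libraries. KO-minus was also the single high library for Cyp2e1, a cytochrome P450, at 763, 1038, 2504 and 488 (-2.33).

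Other lower members of the white adipocyte list were Car3, Fabp4, Nnat and Apol6. Car3, a carbonic anhydrase abundant in fat, stood at 31318 in WT-minus, 2373 in WT-plus, 30917 in KO-minus and 9288 in KO-plus, a difference of -1.73. Fabp4, the adipocyte fatty acid carrier, stood at 20577, 4071, 18272 and 7079, a difference of -1.37. Nnat, a proteolipid of the endoplasmic reticulum, stood at 2833, 15.7, 1817 and 488, a difference of -1.87. Apol6, an apolipoprotein L gene, stood at 796, 73.3, 584 and 149, a difference of -1.90. Car3, Fabp4, Nnat and Apol6 thus shared the order of Plin1, with WT-plus lowest and KO-plus next. The summed level of the 45 genes was 281951 in WT-minus, 69100 in WT-plus, 319210 in KO-minus and 139728 in KO-plus. Of 29 genes of fatty acid and sterol synthesis measured, 2 were lower and 0 higher, beside 2.95% of all genes lower, with a median of -0.21. These 2, the desaturase gene Scd1 (-1.26) and the carboxylase gene Acaca (-1.18), are also on the white adipocyte list.

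**Figure D3:**
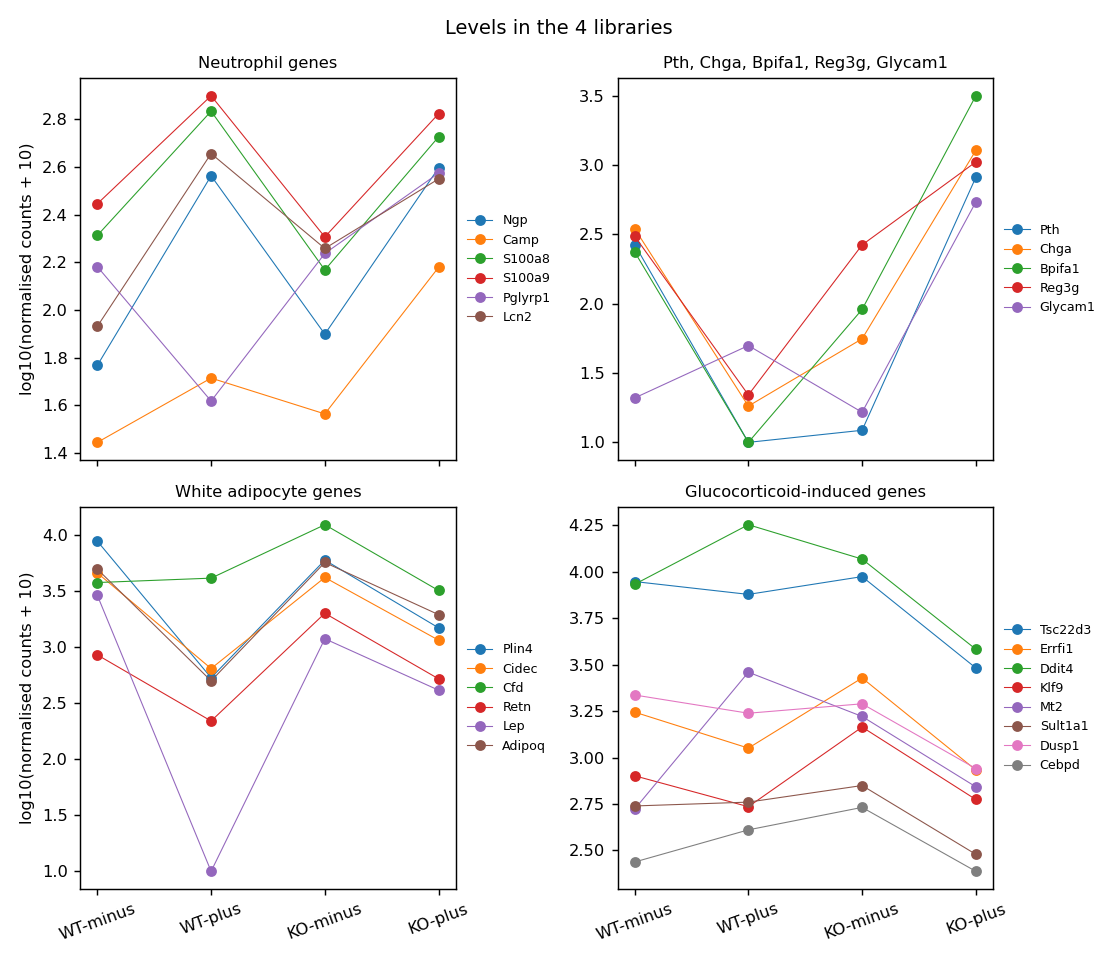
Levels of named genes in the 4 libraries, as log10(normalised counts + 10), 1 library per group. Thin lines join the values of 1 gene and carry no time order, and the vertical scale differs between panels. Ngp, Camp, S100a8 and S100a9 are higher in both MNU libraries than in both vehicle libraries, the genes of the second panel are highest in KO-plus, and Tsc22d3, Errfi1, Ddit4, Sult1a1, Dusp1 and Cebpd are lowest there.

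The promoters of Plin1 and Lep are shown for the fat genes on the same terms as those above. The Plin1 window, chr7:79732777-79733026 on the minus strand of GRCm38, holds 2 matches, beginning at -187 and -58. The Lep window, chr6:29059971-29060220 on the plus strand, holds 1, beginning at -55.
Plin1: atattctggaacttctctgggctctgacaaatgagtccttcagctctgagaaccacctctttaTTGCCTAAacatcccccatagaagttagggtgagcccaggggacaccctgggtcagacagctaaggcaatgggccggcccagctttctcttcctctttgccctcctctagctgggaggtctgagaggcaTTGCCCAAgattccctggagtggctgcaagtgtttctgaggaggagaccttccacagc
Lep: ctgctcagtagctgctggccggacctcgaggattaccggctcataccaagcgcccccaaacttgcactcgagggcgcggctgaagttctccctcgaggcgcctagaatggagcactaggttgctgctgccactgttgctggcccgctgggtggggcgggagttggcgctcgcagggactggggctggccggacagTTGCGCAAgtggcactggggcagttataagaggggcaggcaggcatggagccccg

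Of the 23 lower adipocyte genes with a promoter in the table, 3 (13.0%) held the C/EBP letters, beside 8.88% of all genes analysed. The E-box CACGTG, the same on both strands, was in 3 of the 23 and in 10.1% of all. No overlap between motifs was removed.

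Brown fat genes did not share the decrease against KO-minus. Ucp1, which uncouples brown fat mitochondria, was at 3415 in WT-minus, 73.3 in WT-plus, 1224 in KO-minus and 1256 in KO-plus, a difference of 0.038. Cidea stood at 1225, 95.6, 577 and 682 (0.24), and Cox8b, a subunit of cytochrome oxidase, at 802, 31.5, 600 and 508 (-0.24). The knockout libraries were thus alike for these genes, and both below WT-minus. Of 10 brown fat genes measured, 0 reached 2-fold against KO-minus, with a median of 0.019. Of all genes, 0.331% were higher and 2.95% lower, so a count of 0 is near that of all genes. Against WT-minus 2 were lower and 0 higher, with a median of -0.70, beside 1.11% of all genes lower.

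Further genes outside the lists were among the largest decreases after subtraction. Fam107a, an actin-associated gene, stood at 55.5 in WT-minus, 101 in WT-plus, 896 in KO-minus and 167 in KO-plus, a difference of -2.36. Car12, a membrane carbonic anhydrase, stood at 132, 370, 743 and 171, a difference of -2.06. KO-minus was the highest library for both, WT-plus was next for Car12, and KO-plus was above WT-minus by 1.43 and 0.35. Rbp4, the plasma retinol carrier also made by fat, stood at 485, 12, 646 and 153 (-2.01). Timp4, a metalloproteinase inhibitor, stood at 460, 30.5, 406 and 103 (-1.88), and Slc7a10, an amino acid transporter, at 508, 36.1, 554 and 152 (-1.80). For Rbp4, Timp4 and Slc7a10 WT-plus was the lowest library and KO-plus the next, as for Plin1.

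Major urinary protein genes, secreted carriers of pheromones made mainly in liver, were lower as a family. All 14 Mup genes were lower, beside 2.95% of all genes, with differences from -1.89 to -1.51 and a median of -1.76. Mup2 stood at 47.6 normalised counts in WT-minus, 61.2 in WT-plus, 1465 in KO-minus and 388 in KO-plus. The median level over the family was 13.4, 15.2, 391.5 and 114.4 in the same order, so both knockout libraries were above both wild-type libraries. After subtraction the family's median was -1.99. The genes are near-identical copies that share reads, so they are not 14 observations, and the family was counted after its values had been seen.

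Glucocorticoid-induced genes, which the glucocorticoid receptor activates in thymocytes and many other cells, were lower in part. Of 22 measured genes, 8 were lower and 0 higher, with a median of -0.87, beside a share-only median of -0.16 and 2.95% of all genes lower. After subtraction 8 were lower and 1 higher (Lcn2), with a median of -0.77, beside 1.87% of all genes lower. Against WT-minus 6 were lower and 1 higher (Lcn2), with a median of -0.33, beside 1.11% of all genes lower. KO-plus was the lowest of the 4 libraries for 13 of the 22, and for 21.7% of all genes.

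Tsc22d3, the glucocorticoid-induced leucine zipper, stood at 8848 normalised counts in WT-minus, 7545 in WT-plus, 9410 in KO-minus and 3025 in KO-plus. Errfi1, a feedback inhibitor of EGF receptor, stood at 1745, 1114, 2671 and 847. Dusp1, a phosphatase of MAP kinases, stood at 2161, 1722, 1936 and 862. KO-plus was the lowest library for each, by -1.63, -1.65 and -1.16 against KO-minus and by -1.55, -1.03 and -1.32 against WT-minus. Ddit4, an inhibitor of mTORC1, stood at 8552, 17913, 11695 and 3818, a difference of -1.61 with a share-only difference of -0.65.

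For Klf9, Sult1a1, Cebpd and Mt2 the difference was smaller against WT-minus than against KO-minus. Klf9, a transcription factor, stood at 787, 533, 1449 and 584, a difference of -1.30 from KO-minus and -0.42 from WT-minus. Cebpd, a C/EBP factor, stood at 264, 398, 529 and 234 (-1.14 and -0.17), and Sult1a1, a sulfotransferase, at 538, 565, 697 and 291 (-1.23 and -0.86). Mt2, a metallothionein, stood at 518, 2870, 1654 and 685, and KO-plus was below KO-minus by -1.26 but above WT-minus by 0.40. Fkbp5, a co-chaperone that restrains the receptor, stood at 11620, 49181, 17892 and 10113, a difference of -0.82 of which the share alone would give -0.67. Per1, a clock gene that the receptor also activates, was at -0.95. The letters ACANNNTGT, a loose form of the receptor's element that reads the same on both strands, were in 0 of 7 promoters of the lower genes and in 4.35% of all genes analysed.

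Of 22 immediate-early genes measured, 4 were lower and 0 higher, with a median of 0.0064, beside 2.95% of all genes lower. The 4 were Dusp1, the matricellular genes Ctgf and Cyr61, and the transcription factor Klf4. Ctgf stood at 304 in WT-minus, 368 in WT-plus, 445 in KO-minus and 98.1 in KO-plus (-2.07). Cyr61 stood at 1039, 150, 407 and 132 (-1.56), and Klf4 at 618, 479, 790 and 382 (-1.03). KO-plus was the lowest library for all 4.

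Of 28 fibroblast genes measured, 6 were lower and 0 higher, with a median of -0.54, beside 2.95% of all genes lower. After subtraction 1 was lower, beside 1.87% of all genes. That gene, Ccdc80, an extracellular matrix protein of fat and fibroblasts, stood at 2277 in WT-minus, 393 in WT-plus, 1911 in KO-minus and 828 in KO-plus (-1.20). Fn1, which encodes fibronectin, stood at 2509, 9043, 2461 and 1123, a difference of -1.13 beside a share-only difference of -1.05. Col1a1, a chain of collagen I, stood at 2221, 10968, 3168 and 1542, with -1.03 and -0.95. Timp3, a matrix-bound inhibitor of metalloproteinases, stood at 2918, 873, 6779 and 2330 (-1.54). Of 13 endothelial genes measured, 2 were lower, beside 2.95% of all genes. These were Gpihbp1 and Fabp4, the latter also on the white adipocyte list. Gpihbp1, the capillary anchor of lipoprotein lipase, stood at 312, 247, 309 and 104 (-1.48), and KO-plus was the single low library.

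The keratin genes Krt15, Krt6a and Krt5 were below KO-minus, the first 2 by over 2-fold. Krt15 stood at 69.4 in WT-minus, 0.824 in WT-plus, 456 in KO-minus and 179 in KO-plus (-1.30). Krt6a, a keratin of activated epithelium, stood at 630, 14.8, 1387 and 673 (-1.03), and Krt5, a basal keratin of medullary epithelium, at 10374, 7.33, 17368 and 10977 (-0.66). KO-minus was the highest library for these 3 genes, and KO-plus was close to WT-minus for Krt6a and Krt5. The median was -0.51 over 13 squamous genes, 0.064 over 14 medullary genes and -0.34 over 17 cortical epithelial genes.

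The largest decreases of all were close to those that the share alone would give. Sall3, a developmental zinc finger factor, stood at 2.96 normalised counts in WT-minus, 3434 in WT-plus, 480 in KO-minus and 1.05 in KO-plus. Its difference of -5.47 stood beside a share-only difference of -5.61, and after subtraction KO-minus was at 0. Olig3 stood at 292, 2971, 460 and 34.8 (-3.39, share-only -3.47), and Vwce at 101, 6610, 999 and 78.7 (-3.51, share-only -3.62). In each of these genes WT-plus was the single high library and KO-minus was next. Sall3 and Vwce were among the 42 genes that set the share, so their closeness follows from the way those were chosen. Olig3 was not among them.

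Among the lower NOTCH pathway genes, Notch1 and Notch3 had share-only differences close to the measured ones. NOTCH receptors signal in early thymocytes and switch on genes such as Dtx1 and Heyl. Of 24 measured genes 4 were lower and 0 higher, with a median of 0.039, beside 2.95% of all genes lower. Dtx1 stood at 931 in WT-minus, 35307 in WT-plus, 6307 in KO-minus and 978 in KO-plus, a difference of -2.68 against a share-only difference of -2.67. It was among the 42 genes that set the share, so that closeness follows from the way they were chosen. Notch1 stood at 7913, 76273, 18411 and 8987 (-1.03, share-only -1.10), and Notch3 at 3386, 25218, 6617 and 2640 (-1.32, share-only -1.21). After subtraction the differences were -0.087 for Dtx1, 0.19 for Notch1 and -0.29 for Notch3, so all 3 were inside the 2-fold limit, as they were against WT-minus. Heyl stood at 374, 3044, 967 and 284 (-1.73, share-only -1.29), and was still past the limit after subtraction at -1.03.

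Bst1, an ectoenzyme of stroma and myeloid cells, stood at 207, 5937, 1036 and 211, a difference of -2.24 beside a share-only difference of -2.31. It too was among the 42 genes that set the share. Marco, a scavenger receptor of macrophages, stood at 27.8, 727, 165 and 8.21. Its difference of -3.26 exceeded the share-only difference of -2.82 and was -1.99 after subtraction. KO-plus was the lowest library for Marco, at about 8 reads.

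The 11 lists that follow had medians within 0.4 of 0 and no member past 2-fold. Among 15 early thymocyte genes, by contrast, Dtx1, Notch3 and Notch1, given above, were lower, beside 2.95% of all genes. The early thymocyte median was -0.14, and 0.11 after subtraction. The median was 0.20 over 36 double-positive thymocyte genes and 0.30 over 39 mature T cell genes, of which the share alone would give 0.075 and 0.15. It was -0.069 over 34 S phase genes, -0.13 over 32 genes of G2 and mitosis and -0.11 over 37 MYC-activated growth genes. After subtraction these 3 medians were 0.10, 0.051 and 0.021, on the other side of 0. The median was 0.15 over 39 interferon-induced genes and -0.0084 after subtraction. It was 0.0064 over 23 p53 target genes, -0.11 over 52 ribosomal protein genes, -0.096 over 40 oxidative phosphorylation genes and -0.098 over 18 glycolysis genes. Dendritic cell and MHC class II genes had a median of 0.22 over 25 genes, of which 0.046 was left after subtraction.

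**Figure D4:**
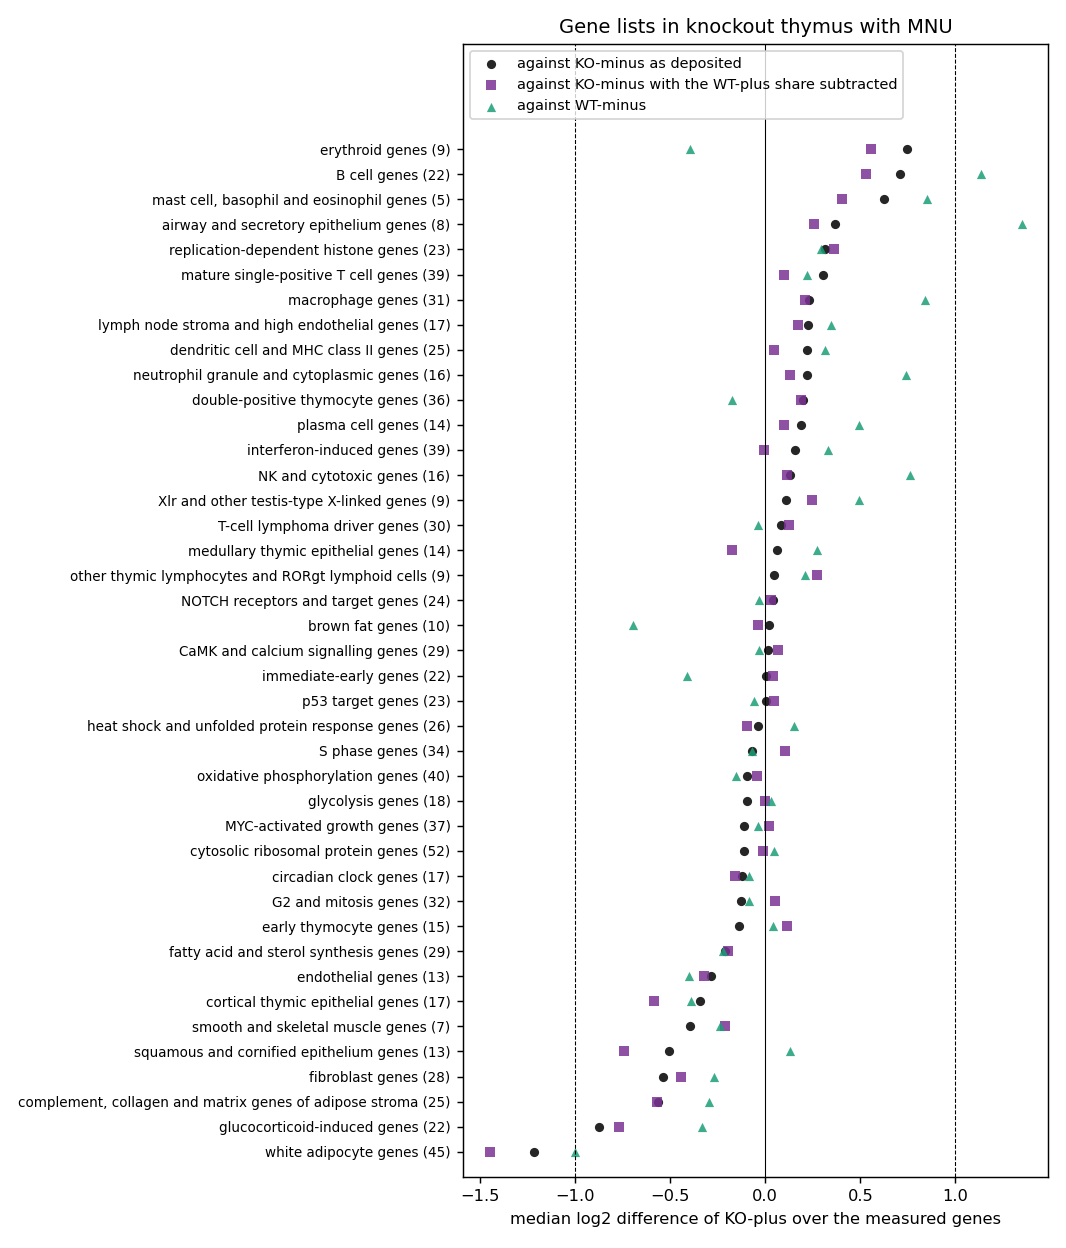
Median log2 difference of KO-plus over the measured genes of each of 41 lists with at least 5 measured genes (number in brackets), against KO-minus as deposited (black circles), KO-minus after subtraction of the WT-plus share (purple squares) and WT-minus (green triangles), 1 library per group. Dashed lines mark 2-fold. White adipocyte genes lie lowest against all 3, at -1.21, -1.45 and -0.999, and glucocorticoid-induced genes next to them against KO-minus, while the erythroid median changes sign with WT-minus.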

How the data were processed

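Thymus RNA of 4 mouse libraries, 1 per group, was sequenced. Per the labels' protocols, total RNA with RIN above 7.5 went into TruSeq libraries. The submitters' processing notes name mm9, TopHat2 2.0.8b and edgeR without saying what each was used for. How genes were counted and how values were normalised is not stated there or in the labels. The deposited signal values are named normalised counts per the file headers. They were not whole numbers, so no count model or counting interval was used. The spacing of low values was 0.991, 0.928, 1.06 and 1.02 units in WT-minus, WT-plus, KO-minus and KO-plus, so 1 unit was about 1 read. A value of 0 is reported as listed at 0.

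Genes with a mean of at least 10 were kept (11 of 10598 removed), 10 was added as a pseudocount and log2 taken. Of the symbols, 10521 matched RefSeq and 14 had the form of dates. With 1 library per group there was no test. Differences are on the log2(value + 10) scale, which understates those of low genes. KO-minus corrected for the share s was (KO-minus − s × WT-plus)/(1 − s). The steps were run on simulated data. No result of that run is given here, so it is no evidence that the subtraction of the share is accurate. Members and the 44 gene lists were chosen with earlier results of these data known. Lists with under 5 measured genes (3 of 44) have no median. Named genes were Camk2g, the markers Ngp, Plin4 and Pth, the 20 largest increases and 20 largest decreases of at least 100 units without provisional symbols (with and without subtraction), members of lists with up to 12 measured genes, and the 8 largest plus the first 3 marker genes of longer lists. Not all are printed. Lep was chosen after its values were seen.

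Promoters and motifs used RefSeq windows on GRCm38, matched by symbol. Other coordinates are not given, since the submitters' notes name mm9. Alternatives were pseudocounts of 2.5 and 40, no filter and a mean of at least 100, 2 other scalings, 4 forms of subtraction, WT-minus in place of KO-minus and a 4-fold limit. Python 3.11.15, numpy 2.4.6, pandas 2.3.3 and matplotlib 3.10.9 were used.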

Additional observations from a re-analysis of the deposited data

Results flagged for a closer look

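For 29 named genes the difference between the knockout libraries was past 2-fold in one direction and the difference between the wild-type libraries past 2-fold in the other. With 1 library per group the difference between genotypes was not tested. Values are log2 differences of MNU minus vehicle, the knockout first and the wild type second.

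In 10 genes the knockout was higher and the wild type lower: Pth (6.06 and -4.74), Bpifa1 (5.12 and -4.56), Chga (4.51 and -4.25), Eps8l1 (2.16 and -2.52), Reg3g (1.99 and -3.80), Gp2 (1.93 and -3.78), Vmn2r96 (1.81 and -4.21), Sfi1 (1.49 and -2.83), Faim3 (1.21 and -3.41) and Pglyrp1 (1.12 and -1.87). In all 10 WT-plus was the lowest of the 4 libraries, and Pth and Bpifa1 were listed at 0 there.

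In the other 19 the knockout was lower and the wild type higher. For 14 of them the share alone would give at least 2-fold: Sall3 (-5.47 and 8.05), Gm14475 and its copy Gm14476 (-3.73 and 6.57 each), Vwce (-3.51 and 5.90), Olig3 (-3.39 and 3.31), Marco (-3.26 and 4.29), Dtx1 (-2.68 and 5.23), Bst1 (-2.24 and 4.77), Heyl (-1.73 and 2.99), Clec4d (-1.42 and 3.16), Padi4 (-1.39 and 2.44), Notch3 (-1.32 and 2.89), Fn1 (-1.13 and 1.85) and Notch1 (-1.03 and 3.27). Sall3, Gm14475, Gm14476, Vwce, Dtx1 and Bst1 were among the genes that set the share, so this follows from the way they were chosen. Col1a1 (-1.03 and 2.30) lay close, with a share-only difference of -0.95. The share would give less for Car12 (-2.06 and 1.42), Ddit4 (-1.61 and 1.07), Mt2 (-1.26 and 2.45) and Trem2 (-1.01 and 1.99), at -0.23, -0.65, -0.57 and -0.68.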

How the results depend on the processing

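For 92 named genes, 41 list medians and the counts, 1520 alternative values were computed. Of these, 1407 kept their side of 2-fold (counts, within 1.5 times), and 50 genes did throughout. Among those 1407, 16 gene values and 49 list medians changed sign inside the 2-fold limit. Median-of-ratios and upper-quartile scaling, no filter, a mean of at least 100 and a pseudocount of 2.5 took no gene or list median across the limit, though the scalings turned 4 and 2 medians lying within 0.02 of 0, and moved the median of all genes only to between -0.0064 and 0.013. A pseudocount of 40 took 4 genes under 2-fold. No paired analysis was possible because each group has 1 library, and for the same reason no library could be left out of a group. Replicate error, low levels near a few reads, and the true share are the limits of every value.

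The count of higher genes was 114 when 20% of WT-plus was subtracted, 166 with WT-minus in place of KO-minus and 10 at 4-fold. The count of lower genes was 198 after subtraction of the estimated share, 197 with the share from the wild-type libraries, 192 with 20%, 117 with WT-minus and 73 at 4-fold. With WT-minus in place, 8 of 16 neutrophil genes were higher and 2 lower, beside 1.57% and 1.11% of all genes. The white adipocyte median was then -0.999, and the airway and B cell medians were 1.35 and 1.13. With 20% the Xlr median was 1.75. Values set to 0 by subtraction give positive differences by construction.

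Signs turned after subtraction, with the estimated share, the share from the wild-type libraries and 20% in that order, for Camk2g (1.83, 1.99, 1.99), Clec4d (0.067, 0.087, 1.09), Sall3 (0.14, 0.14, 0.14), Vwce (3.15, 3.15, 3.15), Olig3 (1.69, 2.11, 2.16), Notch1 (0.19, 0.20, 1.19) and Bst1 (0.51, 0.57, 4.47). With 20% alone they also turned for Dtx1 (6.63), Notch3 (0.42), Fn1 (0.46), Col1a1 (0.34), and Gm14475 and Gm14476 (1.75 each). With WT-minus in place they turned for Ucp1 (-1.44), Car12 (0.35), Fam107a (1.43), Mup2 (2.79), Mt2 (0.40), Dtx1 (0.070), Notch1 (0.18), Bst1 (0.028), Hba-a1 (-0.50), Hbb-b1 (-0.39), Krt15 (1.25), Krt6a (0.095), and Gm14475 and Gm14476 (0.49 each). Inside the 2-fold limit, Cidea (-0.83), Cd4 (-0.37), Cd8a (-0.24), Krt5 (0.081) and Syt13 (0.015) also turned with WT-minus, Ucp1 (-0.19) and Calcb (-0.20) after subtraction of the estimated share, and Cidea (-0.030), Fkbp5 (0.0062) and Syt13 (0.53) with 20%. The cause was not tested.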
